A study of Mus musculus with 20 samples.

Results

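The genes of outer segment uptake followed here across diet and genotype in mouse RPE-choroid were the receptor tyrosine kinases *Mertk*, *Tyro3* and *Axl*, their ligands *Gas6* and *Pros1*, the integrin chains *Itgav* and *Itgb5*, and the integrin ligand *Mfge8*. The 8 genes were taken by name for their known function and are 8 of the 24411 genes in the table. All 8 were above the filter on low values, which kept 18807 genes.

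The RPE is a single layer of pigmented cells between the photoreceptors and the choroid, and every day it takes up the shed tips of the photoreceptor outer segments. Uptake starts when phosphatidylserine exposed on the shed tips is bridged to the RPE surface, by MFG-E8 to the integrin alpha v beta 5, which binds the particle and times the daily burst, and by GAS6 and protein S to MERTK, which drives engulfment. GAS6 and protein S need vitamin K-dependent carboxylation, and TYRO3 and AXL are the other members of the TAM receptor family, of which MERTK is the one whose loss causes retinal degeneration.

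Bulk RNA-seq of RPE-choroid was available for 4 groups of 5 libraries, WT and Stra6-/- mice (strain C57BL/6), each fed from weaning at about 28 days a vitamin A sufficient (VAS, 4 IU vitamin A per g) or a vitamin A deficient (VAD, 0 IU per g) diet for 12 weeks. STRA6 is the receptor that takes retinol from the blood into the RPE, so that the design asks how the tissue responds to falling ocular vitamin A. Each library held both eyecups of 1 mouse, with the neural retina peeled off after dispase, and the pups of every group had been kept on chow before weaning. WT mice were purchased and Stra6-/- mice bred in house, so that source and genotype cannot be told apart, and which exons the null allele lacks is not given in the sources used here. The values are gene counts that the authors divided by a size factor per library, called normalized values below, with 13331903 to 21878614 recovered reads per library. They are not scaled for gene length. Comparisons used limma, run on log2(value + 1) of all 20 libraries, with Benjamini-Hochberg adjustment and an adjusted p under 0.05 as the threshold.

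Several libraries stood apart from their labels or their group. The normalized count of *Stra6*, the targeted gene, averaged 2591 ± 149 over the 5 VAS WT libraries, 629 ± 49.8 over the 5 of VAS Stra6-/- and 986 ± 415 over the 5 of VAD WT (mean ± SD). Within VAD WT it lay between 669 and 697 in replicates 1, 3 and 5, overlapping with VAS Stra6-/- (564 to 694), and between 1340 and 1529 in replicates 2 and 4, so that VAD WT names these libraries as they are labelled. The 5 libraries labelled VAD Stra6-/- had 2163 ± 154, above VAD WT, which goes against the label. The summed value of 11 RPE markers (*Rpe65*, *Rlbp1*, *Lrat*, *Rdh5*, *Rgr*, *Rrh*, *Best1*, *Ttr*, *Slc16a8*, *Ermn* and *Otx2*) lay between 111574 and 128130 in VAS WT, between 114113 and 119972 in VAS Stra6-/-, between 31833 and 57272 in VAD WT and between 493042 and 537322 in the libraries labelled VAD Stra6-/-. Surface epithelium markers such as keratins were present in all groups, with sums of 501637 to 598125, 714294 to 742345, 315259 to 868228 and 19738 to 25993 in the same order of groups. Within VAD WT, replicates 2 and 4 were above replicates 1, 3 and 5 in the sums of fibroblast and sclera markers (150501 to 154276 against 49799 to 51920), endothelium markers (20311 to 21004 against 7651 to 7782), skeletal muscle markers (10257 to 11011 against 3019 to 3170) and inner retina and Muller glia markers (43368 to 45862 against 25577 to 27670), and below them in surface epithelium markers (315259 to 317089 against 844116 to 868228). RPE marker sums were also higher in VAD WT replicates 2 and 4 (55743 to 57272) than in replicates 1, 3 and 5 (31833 to 34536). Sex-linked transcripts split the libraries too. *Xist* lay between 7.69 and 38.4 in VAS WT, 15320 and 18052 in VAS Stra6-/-, 174 and 234 in VAD WT replicates 1, 3 and 5, 10912 and 11767 in VAD WT replicates 2 and 4, and 3570 and 4280 in the libraries labelled VAD Stra6-/-. The sum of the Y-linked *Ddx3y*, *Eif2s3y*, *Kdm5d* and *Uty* was 2716 to 2985, at most 4.39, 3034 to 3290, 240 to 241 and 1206 to 1590 in the same order. Both kinds of transcript were therefore present side by side in the libraries labelled VAD Stra6-/- and in VAD WT replicates 2 and 4, although each library is described as 1 mouse. Of 93 marker genes over 11 lists, the only ones at 0 in every library of a group were the Y-linked *Kdm5d* and *Uty* in VAS Stra6-/-. In bulk tissue, fewer cells of a type and less RNA per cell cannot be told apart.

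The 8 genes lie on 4 chromosomes of GRCm38 (GENCODE vM21): *Mertk* at chr2:128698956-128802894, *Tyro3* at chr2:119797733-119818104, *Itgav* at chr2:83724397-83806916, *Axl* at chr7:25757273-25788705, *Mfge8* at chr7:79133768-79149060, *Gas6* at chr8:13465374-13494490, *Pros1* at chr16:62854307-62929346 and *Itgb5* at chr16:33829665-33949338. *Axl*, *Mfge8* and *Gas6* are on the minus strand and the others on the plus strand. RefSeq windows from 250 bases before to 50 bases after a start site (GRCm38.p6) matched all 8 genes, 1 window each, with 58.3% to 73.3% G and C against a median of 52.7% over 32851 windows. The GC box GGGCGG, on either strand, was found in 8 of the 8 windows and in 35.7% of all windows. None of the 8 windows held the nuclear receptor half-site AGGTCA (16.3% of all windows), the E-box letters CACGTG (7.15%) or CATGTG (14.2%), CCAAT (37.4%), TATAAA (13.6%), TGAGTCA (5.2%) or CCGGAAG (8.86%), each searched on both strands. The windows below are of the 4 genes whose response to diet differed between the genotypes and of *Tyro3*, whose values did not rise with theirs, each read 5′ to 3′ on the strand of the gene, with GC boxes of either strand in capitals. That of *Tyro3* begins inside the span of the GENCODE gene.
Mertk, chr2:128698665-128698964, plus strand: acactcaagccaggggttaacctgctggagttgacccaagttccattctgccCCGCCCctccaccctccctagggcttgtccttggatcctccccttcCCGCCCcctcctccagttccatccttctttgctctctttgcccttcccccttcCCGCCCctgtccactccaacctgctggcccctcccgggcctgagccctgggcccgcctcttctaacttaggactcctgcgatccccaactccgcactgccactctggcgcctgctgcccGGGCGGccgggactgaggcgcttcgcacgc
Pros1, chr16:62854057-62854356, plus strand: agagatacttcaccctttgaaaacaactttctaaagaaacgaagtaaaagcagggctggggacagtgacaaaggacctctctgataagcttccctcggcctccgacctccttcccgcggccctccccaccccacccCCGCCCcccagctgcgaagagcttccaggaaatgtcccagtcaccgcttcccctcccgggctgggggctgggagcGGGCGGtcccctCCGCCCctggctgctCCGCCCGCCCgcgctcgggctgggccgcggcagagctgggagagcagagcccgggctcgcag
Itgav, chr2:83724147-83724446, plus strand: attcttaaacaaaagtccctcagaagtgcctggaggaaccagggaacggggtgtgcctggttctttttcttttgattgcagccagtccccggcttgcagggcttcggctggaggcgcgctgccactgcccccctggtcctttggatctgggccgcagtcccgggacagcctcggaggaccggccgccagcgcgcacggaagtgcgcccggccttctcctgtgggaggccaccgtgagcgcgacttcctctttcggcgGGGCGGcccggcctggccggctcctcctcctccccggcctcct
Itgb5, chr16:33829415-33829714, plus strand: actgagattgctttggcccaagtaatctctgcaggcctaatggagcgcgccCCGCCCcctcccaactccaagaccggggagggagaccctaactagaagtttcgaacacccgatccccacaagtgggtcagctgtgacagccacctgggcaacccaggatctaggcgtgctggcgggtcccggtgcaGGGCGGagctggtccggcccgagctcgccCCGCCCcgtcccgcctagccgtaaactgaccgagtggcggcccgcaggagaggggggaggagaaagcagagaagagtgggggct
Tyro3, chr2:119799264-119799563, plus strand: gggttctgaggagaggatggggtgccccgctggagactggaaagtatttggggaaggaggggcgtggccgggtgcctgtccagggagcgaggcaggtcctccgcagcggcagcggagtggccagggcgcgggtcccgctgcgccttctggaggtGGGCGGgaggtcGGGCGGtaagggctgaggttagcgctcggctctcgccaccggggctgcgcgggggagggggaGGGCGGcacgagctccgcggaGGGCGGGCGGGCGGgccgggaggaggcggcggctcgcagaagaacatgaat
The window of *Tyro3* held 6 GC boxes, that of *Pros1* 5, that of *Mertk* 4, that of *Itgb5* 3 and that of *Itgav* 1.

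Scaled by length (mean normalized value per kb of union exon), *Gas6* had the highest level of the 8 genes in each group, 2415 ± 109 per kb (SD, n = 5) in VAS WT and 4792 ± 303 per kb (SD, n = 5) for those labelled VAD Stra6-/-. In VAS WT the order below *Gas6* was *Mfge8* at 879 ± 33.6, *Itgb5* at 765 ± 26.6, *Axl* at 422 ± 16.9, *Tyro3* at 247 ± 14.9, *Pros1* at 212 ± 25.5, *Itgav* at 153 ± 8.97 and *Mertk* at 106 ± 12.9 per kb (SD, n = 5). Of these neighbours, *Tyro3* and *Pros1* overlapped between libraries. *Mertk*, the main engulfment receptor of the RPE, was thus the lowest of the 8 per kb in VAS WT, and it was also last in VAD WT (82.1 ± 20.4, SD, n = 5, overlapping with *Itgav*) and in VAS Stra6-/- (119 ± 11.4, SD, n = 5). Among the libraries labelled VAD Stra6-/-, *Itgb5* (1726 ± 154) stood above *Mfge8* (861 ± 32.7), *Itgav* (695 ± 48.5) overlapped with *Axl* (706 ± 18.8), and *Mertk* (221 ± 22.1) overlapped with *Tyro3* (199 ± 15.4), all per kb with SD and n = 5. Lengths by the longest transcript kept the order in VAS WT, but put *Mertk* below *Tyro3* in all groups, the libraries labelled VAD Stra6-/- included, where those values overlapped as well.

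**Figure D1:**
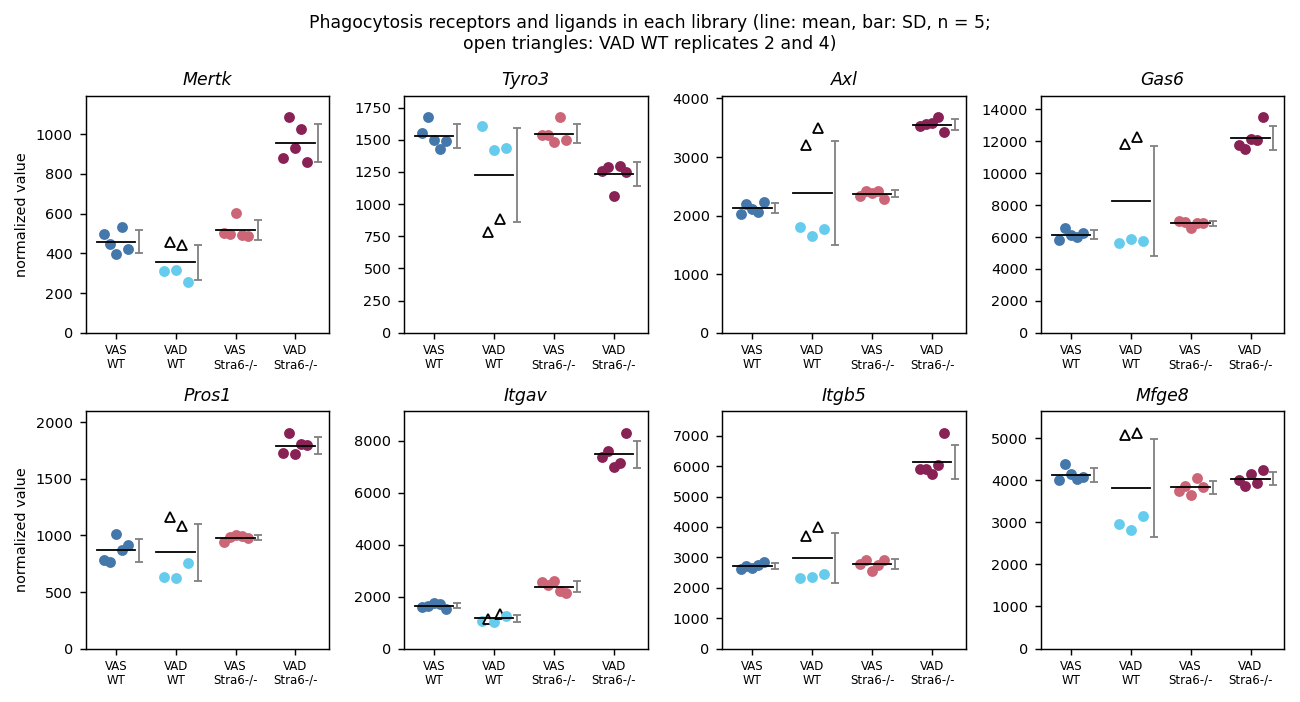
Normalized value (y axis, from 0) of each of the 8 genes in each library of the 4 groups (x axis), 1 point per library, with the mean as a line and the SD as a bar beside it (n = 5). The libraries labelled VAD Stra6-/- lie above all others for *Mertk*, *Pros1*, *Itgav* and *Itgb5*, and VAD WT replicates 2 and 4 (open triangles) lie apart from the other VAD WT libraries for every gene except *Itgav*.

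*Mertk* encodes the receptor that drives engulfment of bound outer segments. Its normalized values in replicates 1 to 5 were 500, 446, 399, 534 and 420 in VAS WT and 309, 458, 315, 440 and 257 in VAD WT. They were 505, 496, 605, 492 and 489 in VAS Stra6-/-, and 882, 1086, 929, 1024 and 862 in the libraries labelled VAD Stra6-/-. The last 5 were each above every other library, while VAD WT overlapped with VAS WT through replicates 2 and 4. Between the Stra6-/- diet groups *Mertk* rose 1.85-fold (log2 fold change 0.88, standard error 0.13, adjusted p = 9.26e-06, limma) and stood 2.74-fold above VAD WT (log2 fold change 1.45, standard error 0.13, adjusted p = 7.70e-09, limma). The VAD WT difference from VAS WT was -0.40 (95% interval -0.68 to -0.11, adjusted p = 0.0758, limma) and did not pass the threshold. Without VAD WT replicates 2 and 4 it was -0.64 (standard error 0.11, adjusted p = 7.32e-05, limma) and did. Those 2 libraries were singled out because they stood apart in these same data, and 3 VAD WT libraries remain without them. Here and below, p-values without them show only how far a result depends on these libraries. VAS Stra6-/- differed from VAS WT by 0.17 (adjusted p = 0.384, limma).

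*Tyro3*, another TAM receptor, had a different pattern. Its values were 1556, 1674, 1500, 1430 and 1489 in VAS WT and 1540, 1541, 1479, 1676 and 1501 in VAS Stra6-/-. They were 1605, 787, 1417, 885 and 1438 in VAD WT, and 1254, 1292, 1067, 1299 and 1251 in the libraries labelled VAD Stra6-/-. Every library labelled VAD Stra6-/- lay below every VAS Stra6-/- library, and VAD WT replicates 2 and 4 were the lowest of all 20. None of the 4 comparisons passed the threshold for *Tyro3* with all libraries, the nearest being the one between the Stra6-/- groups (log2 fold change -0.33, standard error 0.14, adjusted p = 0.0585, limma). Without VAD WT replicates 2 and 4, whose spread enters every comparison of the model, that comparison passed at the same fold change (adjusted p = 5.16e-05, limma), as it did without VAD WT replicate 1, 2 or 4 alone (adjusted p = 0.0360, 0.0166 and 0.0362, limma). The comparison of the VAD groups moved from 0.06 (adjusted p = 0.751) to -0.27 (adjusted p = 0.00152, limma), a change of sign.

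*Axl*, the remaining TAM receptor, which is also made by vascular and connective tissue cells, had values of 2035, 2199, 2105, 2057 and 2227 in VAS WT and 2329, 2419, 2393, 2422 and 2290 in VAS Stra6-/-. It had values of 1805, 3212, 1652, 3489 and 1778 in VAD WT, and 3526, 3557, 3583, 3681 and 3419 in the libraries labelled VAD Stra6-/-. VAD WT replicates 2 and 4 reached the level of the libraries labelled VAD Stra6-/-, replicate 4 overlapping with them, while replicates 1, 3 and 5 lay below all VAS WT libraries. *Axl* rose between VAS Stra6-/- and the libraries labelled VAD Stra6-/- 1.50-fold (log2 fold change 0.58, standard error 0.15, adjusted p = 0.00265, limma). It was 1.57-fold higher there than in VAD WT (adjusted p = 9.97e-04, limma). The diet difference in WT was 0.09 (95% interval -0.22 to 0.41) with all libraries and -0.28 (adjusted p = 2.97e-05, limma) without VAD WT replicates 2 and 4, opposite in sign.

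Of the TAM ligands, *Gas6*, which bridges phosphatidylserine to all the TAM receptors, had values of 5805, 6547, 6110, 6027 and 6274 in VAS WT and 7017, 6912, 6559, 6907 and 6882 in VAS Stra6-/-. Its values were 5595, 11831, 5880, 12271 and 5758 in VAD WT, and 11774, 11523, 12166, 12070 and 13512 in the libraries labelled VAD Stra6-/-. VAD WT replicates 2 and 4 were on average 2.10 times replicates 1, 3 and 5 and inside the range of the libraries labelled VAD Stra6-/-. *Gas6* rose 1.78-fold between the Stra6-/- diet groups (log2 fold change 0.83, standard error 0.17, adjusted p = 3.44e-04, limma) and was 1.58-fold higher there than in VAD WT (adjusted p = 0.00273, limma). A model of those 2 groups alone did not call the latter (adjusted p = 0.0541, limma). The WT diet difference was 0.33 (adjusted p = 0.282, limma), and -0.10 (adjusted p = 0.120, limma) without VAD WT replicates 2 and 4.

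*Pros1*, which encodes protein S, a TAM ligand that is also an anticoagulant of plasma, had values of 779, 761, 1015, 869 and 917 in VAS WT and 942, 985, 1008, 995 and 975 in VAS Stra6-/-. Its values were 632, 1163, 627, 1080 and 755 in VAD WT and 1728, 1907, 1720, 1807 and 1802 in the libraries labelled VAD Stra6-/-. The last group lay above all other libraries without overlap. *Pros1* rose 1.83-fold between the Stra6-/- diet groups (log2 fold change 0.87, standard error 0.14, adjusted p = 1.35e-05, limma) and was 2.18-fold higher there than in VAD WT (log2 fold change 1.12, standard error 0.14, adjusted p = 4.18e-07, limma). Between the WT diet groups the difference was -0.07 (adjusted p = 0.820, limma), and -0.37 (adjusted p = 0.00111, limma) without VAD WT replicates 2 and 4.

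*Mfge8*, the secreted ligand of alpha v beta 5, stayed in a narrow range in the groups other than VAD WT. Over 5 libraries each it averaged 4128 ± 158 for VAS WT, 3829 ± 154 for VAS Stra6-/- and 4040 ± 154 for the libraries labelled VAD Stra6-/- (mean ± SD), and each pair of these groups overlapped. In VAD WT its values were 2956, 5067, 2821, 5126 and 3157, of which replicates 1, 3 and 5 were the lowest and replicates 2 and 4 the highest of all 20 libraries. No comparison passed the threshold with all libraries, and the difference between the Stra6-/- diet groups was 0.08 (95% interval -0.19 to 0.35, adjusted p = 0.648, limma). With VAD WT replicates 2 and 4 left out, *Mfge8* was lower in VAD WT than in VAS WT by -0.47 (adjusted p = 1.10e-07, limma) and the libraries labelled VAD Stra6-/- lay above VAD WT by 0.44 (adjusted p = 5.18e-08, limma).

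The integrin alpha chain gene *Itgav* had the largest fold change of the 8 genes in each comparison with all 20 libraries. Its values were 1614, 1633, 1761, 1714 and 1511 in VAS WT and 1079, 1145, 1003, 1330 and 1244 in VAD WT. They were 2570, 2438, 2585, 2223 and 2118 in VAS Stra6-/-, and 7355, 7606, 6971, 7123 and 8296 in the libraries labelled VAD Stra6-/-. The 4 groups did not overlap, and VAD WT replicates 2 and 4 lay close to replicates 1, 3 and 5, with a ratio of 1.12. *Itgav* was 1.45-fold higher in VAS Stra6-/- than in VAS WT (log2 fold change 0.53, standard error 0.08, adjusted p = 3.46e-05, limma) and fell by 0.51 (log2) between VAS WT and VAD WT (standard error 0.08, adjusted p = 2.12e-04, limma). It rose 3.13-fold between the Stra6-/- diet groups (log2 fold change 1.65, standard error 0.08, adjusted p = 1.97e-13, limma). Against VAD WT the libraries labelled VAD Stra6-/- were 6.45-fold higher (log2 fold change 2.69, standard error 0.08, adjusted p = 1.29e-16, limma).

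*Itgb5* encodes the beta chain that pairs with alpha v on the apical face of the RPE. Its values were 2619, 2715, 2646, 2752 and 2858 in VAS WT and 2780, 2924, 2545, 2742 and 2923 in VAS Stra6-/-. They were 2312, 3698, 2357, 4013 and 2454 in VAD WT, and 5891, 5897, 5734, 6040 and 7093 in the libraries labelled VAD Stra6-/-. The VAS groups overlapped, and the libraries labelled VAD Stra6-/- lay above all others. *Itgb5* rose 2.20-fold between the Stra6-/- diet groups (log2 fold change 1.14, standard error 0.12, adjusted p = 8.34e-08, limma) and was 2.12-fold higher there than in VAD WT (adjusted p = 1.67e-07, limma). The WT diet difference was 0.08 (adjusted p = 0.749, limma), and -0.19 (adjusted p = 0.0148, limma) without VAD WT replicates 2 and 4.

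Counted over the 8 genes, genotype on the VAS diet gave 1 call, *Itgav*. It was the only member past the threshold between VAS Stra6-/- and VAS WT, 1 of 8, where 26.6% of all genes tested passed, 15.9% higher, and the median log2 fold change was 0.16 over the 8 genes and 0.02 over all genes. In 3 of the 8, *Axl*, *Gas6* and *Itgav*, the groups did not overlap, against 32.5% of all genes. Without VAD WT replicates 2 and 4 in the model, 5 of 8 passed (*Axl*, *Gas6*, *Pros1* and *Itgav* higher, *Mfge8* lower), where 40% of all genes did, 22.5% higher. Marker sums moved with this comparison as well, skeletal muscle 2.49-fold higher (7 of 7 genes higher), surface epithelium 1.33-fold higher (4 of 7 higher, 1 lower), inner retina and Muller glia 1.50-fold higher by its sum but with 5 of 9 genes lower and 1 higher, and Schwann cell 2.02 times lower (3 of 4 lower). Their part in the calls was not tested. Sex-linked transcripts moved with genotype here, with *Kdm5d* and *Uty* at 0 in all VAS Stra6-/- libraries and present in all VAS WT libraries, and the genotype cannot be told apart from the sex of the mice or from their source.

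On the VAD diet *Itgav* alone was lower in WT, again 1 of 8, where 8.78% of all genes passed, 5.5% lower and 3.29% higher. The median log2 fold change was -0.12 over the 8 genes and 0.00 over all genes, and *Itgav* was also the only member whose groups did not overlap (6.34% of all genes). With VAD WT replicates 2 and 4 left out, 6 of 8 were lower and none higher (*Mertk*, *Axl*, *Pros1*, *Itgav*, *Itgb5* and *Mfge8*), where 37.9% of all genes passed, 20.3% lower and 17.6% higher, and the median was -0.33 over the 8 genes and -0.02 over all genes. Leaving out VAD WT replicate 2 or replicate 4 alone added *Mertk* to *Itgav*, and leaving out VAD WT replicate 1 added *Tyro3*, each lower. The RPE marker sum was 2.78 times higher in VAS WT than in VAD WT, and 9 of the 11 RPE markers were lower and none higher. The macrophage and microglia sum was 1.55 times lower (8 of 14 genes lower) and the skeletal muscle sum 1.65 times lower (5 of 7 lower), the fibroblast and sclera sum was 2.13-fold higher (4 of 8 higher), and *Xist* was called higher and *Uty* lower. Their part in the result was not tested.

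Between the Stra6-/- diet groups 6 of 8 genes rose, *Itgav*, *Itgb5*, *Mertk*, *Pros1*, *Gas6* and *Axl* in order of fold change, and none fell, where 53.2% of all genes passed, 24.4% higher and 28.8% lower. The median log2 fold change was 0.85 over the 8 genes and -0.07 over all genes. With VAD WT replicates 2 and 4 left out of the model, the 6 stayed higher and *Tyro3* was lower, where 60.7% of all genes passed. In 7 of 8 genes, *Mfge8* being the exception, the groups did not overlap, against 51.3% of all genes. Between the same groups the RPE marker sum rose 4.39-fold, that of macrophage and microglia markers 2.27-fold (13 of 14 higher, 1 lower) and that of fibroblast and sclera markers 4.93-fold (8 of 8 higher), while the surface epithelium sum was 32.4 times lower (7 of 7 lower). Smooth muscle and pericyte markers had a sum 1.95-fold higher (6 of 8 higher, 1 lower), endothelium 1.37-fold higher (5 of 10 higher) and skeletal muscle 1.80 times lower (5 of 7 lower). The 4 Y-linked genes were higher as well, with Y-linked sums that did not overlap, so that the diet cannot be told apart from the sex-linked make-up of these libraries. The part of these shifts in the rise of the 6 genes was not tested, except that each gene was set against the RPE markers, as described below.

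The libraries labelled VAD Stra6-/- were also higher than VAD WT in 6 of 8 genes, *Itgav*, *Mertk*, *Pros1*, *Itgb5*, *Gas6* and *Axl*, with none lower, where 55.9% of all genes passed, 26.2% higher and 29.6% lower. The median log2 fold change was 0.87 over the 8 genes and -0.05 over all genes, and 4 of 8, *Itgav*, *Mertk*, *Pros1* and *Itgb5*, did not overlap between the groups (37.4% of all genes). Once VAD WT replicates 2 and 4 were left out, 7 were higher, *Mfge8* among them, and *Tyro3* was lower, where 63.1% of all genes passed. The RPE marker sum was 12.1-fold higher and the macrophage and microglia sum 3.63-fold higher in the libraries labelled VAD Stra6-/-. Surface epithelium was 28.5 times lower there (7 of 7 genes lower), skeletal muscle 2.29-fold higher (6 of 7 higher), fibroblast and sclera 2.25-fold higher (6 of 8 higher, 1 lower) and smooth muscle and pericyte 1.92-fold higher (6 of 8 higher, 1 lower). Their part in the 6 calls was not tested. Of the 5 sex-linked genes 0 were called with all libraries. Without VAD WT replicates 2 and 4, *Xist* was higher and *Kdm5d* and *Eif2s3y* lower in the libraries labelled VAD Stra6-/-. The genotype cannot be told apart here from the source of the mice or from the sex-linked make-up of the libraries. This comparison shares its libraries with the preceding comparisons, and the counts are given side by side only.

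**Figure D2:**
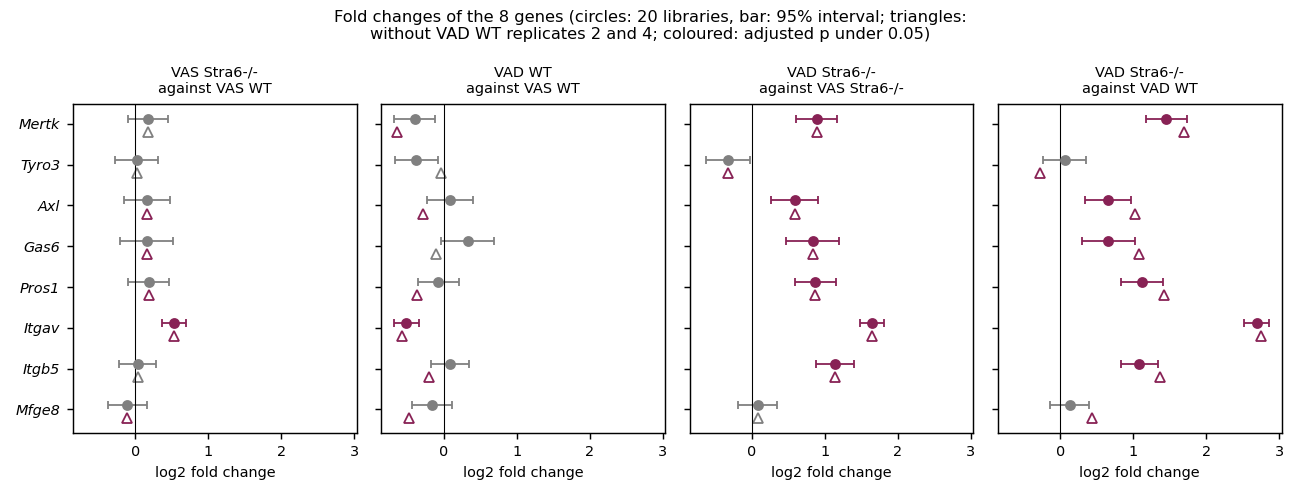
Log2 fold change (x axis) of each gene (y axis) in the 4 comparisons, circles with the 95% interval from limma on all 20 libraries and open triangles for the model without VAD WT replicates 2 and 4, coloured where the adjusted p was under 0.05. *Itgav* is coloured in all 4 panels and reaches 2.69, and for *Axl*, *Itgb5* and *Gas6* circle and triangle lie on opposite sides of 0 in VAD WT against VAS WT.

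Whether the diet acted unequally in the 2 genotypes was tested as the interaction. The diet difference was larger in Stra6-/- than in WT by a log2 value of 2.16 for *Itgav* (standard error 0.11, adjusted p = 2.02e-12, limma), by 1.28 for *Mertk* (standard error 0.19, adjusted p = 1.06e-05, limma), by 1.05 for *Itgb5* (standard error 0.17, adjusted p = 4.06e-05, limma) and by 0.94 for *Pros1* (standard error 0.19, adjusted p = 4.08e-04, limma). *Gas6* (0.50, adjusted p = 0.106), *Axl* (0.49, adjusted p = 0.0705), *Mfge8* (0.24) and *Tyro3* (0.04) did not pass in limma. These are 4 of 8 genes, all higher, where 44.2% of all genes passed, 19.5% higher and 24.8% lower. Without VAD WT replicates 2 and 4, 8 of 8 passed, 7 higher and *Tyro3* lower by -0.29 (adjusted p = 0.00971, limma), where 54.7% of all genes did, 25.7% higher and 29% lower. Leaving out VAD WT replicate 2 alone was enough for *Axl* (0.62, adjusted p = 0.0116) and *Gas6* (0.66, adjusted p = 0.0150) to pass in limma, as was leaving out VAD WT replicate 4 (0.65, adjusted p = 0.00386, and 0.67, adjusted p = 0.0101). Since *Stra6* went against the label in the libraries labelled VAD Stra6-/-, these directions hold for the libraries as labelled. In the interaction the 4 Y-linked genes were also higher and *Xist* lower. Marker lists moved in it too. The median was 3.57 over the RPE markers (10 of 11 higher) and 1.65 over macrophage and microglia markers (13 of 14 higher, 1 lower). It was 1.13 over fibroblast and sclera markers (6 of 8 higher) and -5.31 over surface epithelium markers (7 of 7 lower). Their part in the 4 calls was not tested.

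Set against the RPE markers, the diet differences ran downwards in Stra6-/- and upwards in WT, each opposite to the change of the markers themselves. For each library the mean log2 value of the 11 RPE markers was subtracted from that of the gene, and the groups were compared with two-sided exact permutation tests, of which 5 against 5 libraries allow no p under 0.00794, adjusted over 32 tests. Between VAS Stra6-/- and the libraries labelled VAD Stra6-/-, all 8 genes fell relative to the RPE markers without overlap between the groups (p = 0.00794 each, adjusted p = 0.0106, exact permutation test). The least was *Itgav* with -0.47, followed by *Itgb5* with -0.98, *Mertk* with -1.23, *Pros1* with -1.24, *Gas6* with -1.28 and *Axl* with -1.53. *Mfge8* with -2.04 and *Tyro3* with -2.44, the members that had not risen, were lowest. None of the 8 thus rose as much as the mean of the RPE markers between these groups. The median log2 fold change was 2.44 over the RPE markers and -0.07 over all genes, so that a gene without change falls on this scale. The share of all genes that fell on it was not computed, so that these tests do not set the 8 genes apart from other genes. With only *Rpe65*, *Rlbp1*, *Best1* and *Rgr* as reference, the other 7 passed again and *Itgav* did not (-0.18, adjusted p = 0.127, exact permutation test).

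In WT the differences ran upwards, where the median log2 fold change was -1.11 over the RPE markers and 0.00 over all genes. Relative to the RPE markers, *Mertk* was higher in VAD WT than in VAS WT by 0.79, *Axl* by 1.28, *Gas6* by 1.51, *Pros1* by 1.11, *Itgb5* by 1.27 and *Mfge8* by 1.02 on the log2 scale (adjusted p = 0.0106 each, exact permutation test). *Itgav*, the member that fell, was higher by 0.67 on this scale (adjusted p = 0.0195, exact permutation test), and *Tyro3* by 0.81 with overlap (adjusted p = 0.175, exact permutation test). When VAD WT replicates 2 and 4 were left out, *Tyro3* was higher by 1.46 (adjusted p = 0.0423, exact permutation test), and with the reference of 4 genes *Itgav* (0.55, adjusted p = 0.121) and *Mertk* (0.66, adjusted p = 0.0508) did not pass the exact permutation test. The libraries labelled VAD Stra6-/- were below VAD WT for all 8 genes, from -0.56 for *Itgav* to -3.19 for *Tyro3* (adjusted p = 0.0106 each, exact permutation test), of which *Itgav* did not pass with the reference of 4 genes (-0.38, adjusted p = 0.188, exact permutation test). Between the VAS groups the RPE marker sums overlapped. However, limma called 4 of the 11 RPE markers, *Rdh5*, *Rrh*, *Slc16a8* and *Otx2*, lower in Stra6-/- and none higher. The reference of 4 genes holds none of these. Against all 11 markers, *Itgav* (0.58), *Gas6* (0.20) and *Axl* (0.20) were higher in Stra6-/- (adjusted p = 0.0106, 0.0106 and 0.0195, exact permutation test), and the other 5 did not pass. With the reference of 4 genes *Itgav* did not pass either (0.34, adjusted p = 0.0808, exact permutation test) and neither did *Gas6* (-0.03, adjusted p = 0.823) and *Axl* (-0.03, adjusted p = 0.830, exact permutation test). *Mertk* passed without VAS WT replicate 4 (0.32) and *Pros1* without VAS WT replicate 3 (0.30). Between the VAD groups the median log2 fold change was 3.34 over the RPE markers and -0.05 over all genes. A gene without change therefore shifts on this scale with the reference, and the shares over all genes were not computed. A ratio within a library shows unequal change of the gene and the markers, not which of them changed.

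**Figure D3:**
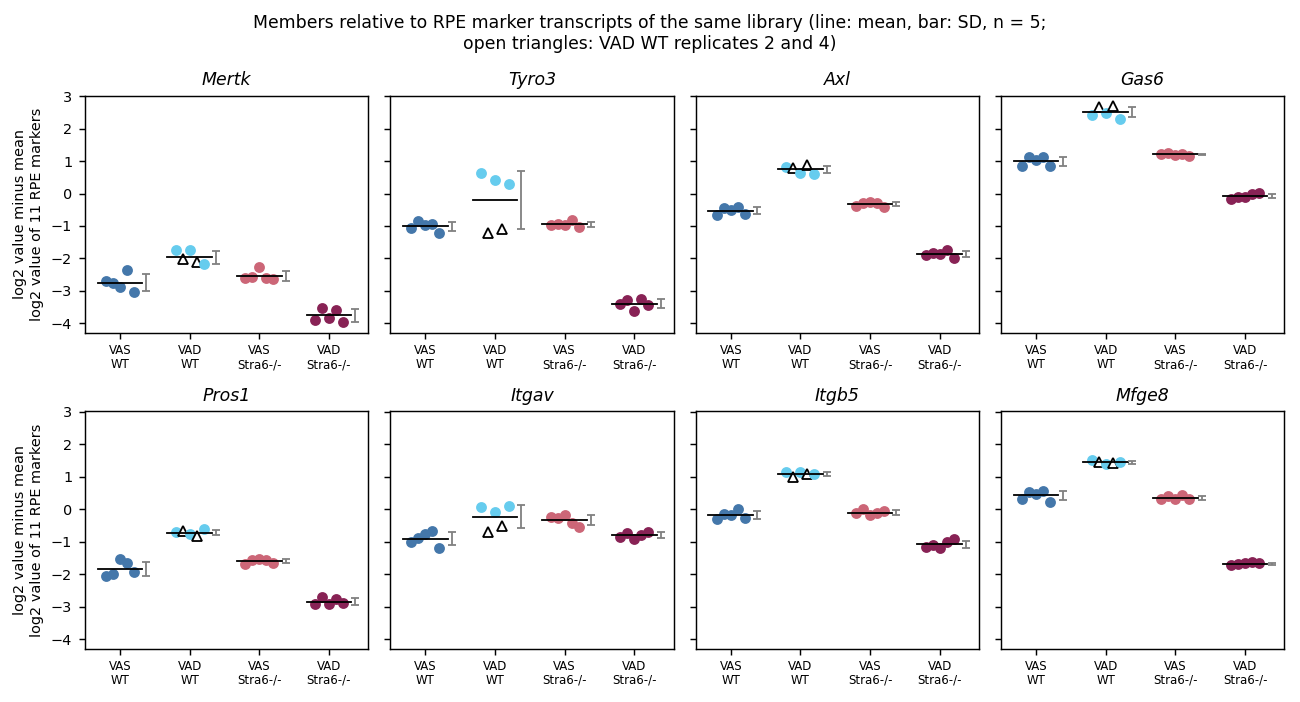
Log2 value of each gene minus the mean log2 value of 11 RPE markers in the same library (y axis) in the 4 groups (x axis), 1 point per library, with the mean as a line and the SD as a bar (n = 5). For every gene but *Itgav* the libraries labelled VAD Stra6-/- are lowest, while *Itgav* has its lowest mean in VAS WT (-0.90, against -0.79 there), and the fall from VAS Stra6-/- runs from -0.47 for *Itgav* to -2.44 for *Tyro3*.

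Ratios between members do not depend on the scaling of a library, and 6 were compared with two-sided exact permutation tests adjusted over 24. The beta to alpha chain ratio, *Itgb5* to *Itgav*, differed in all 4 comparisons (p = 0.00794 each, the smallest possible, adjusted p = 0.0147, exact permutation test). On the log2 scale it was 0.72 ± 0.12 in VAS WT, 1.32 ± 0.31 in VAD WT, 0.22 ± 0.19 in VAS Stra6-/- and -0.29 ± 0.06 in the libraries labelled VAD Stra6-/- (SD, n = 5). It was thus highest in VAD WT and lowest in the libraries labelled VAD Stra6-/-, the reverse of the order of *Itgav* itself. *Itgav* is the denominator and varied more over the 20 libraries (SD of log2 values 1.02 against 0.525 for *Itgb5*). The reversed order therefore follows largely from how the ratio is built. The ratio of *Mfge8* to *Gas6* was likewise separate in each comparison, -0.58 ± 0.03, -1.07 ± 0.18, -0.84 ± 0.05 and -1.59 ± 0.05 in the same order of groups (SD, n = 5, adjusted p = 0.0147, exact permutation test), so that the integrin ligand was lowest against the TAM ligand in the libraries labelled VAD Stra6-/-.

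Among the TAM receptors, *Mertk* to *Tyro3* was -1.58 ± 0.18 in VAS Stra6-/- and -0.37 ± 0.15 in the libraries labelled VAD Stra6-/- (SD, n = 5), a difference of 1.21 (adjusted p = 0.0147, exact permutation test). In WT this ratio was -1.74 ± 0.21 on the VAS and -1.76 ± 0.80 on the VAD diet (SD, n = 5), with a difference of -0.02 (adjusted p = 0.960, exact permutation test; -0.60 and adjusted p = 0.0476 without VAD WT replicates 2 and 4) and VAD WT replicates 2 and 4 above all other VAD WT libraries. *Mertk* to *Axl* fell by 0.49 between the WT diet groups and rose by 0.30 from VAS Stra6-/- to the libraries labelled VAD Stra6-/- (adjusted p = 0.0336 each, exact permutation test). Neither passed when 1 of several libraries was left out (adjusted p of up to 0.0672, exact permutation test). The ligands *Gas6* and *Pros1* kept their ratio between the Stra6-/- diet groups to within -0.04 (2.80 ± 0.07 against 2.77 ± 0.11, SD, n = 5, adjusted p = 0.653, exact permutation test), but the ratio was 0.40 higher in VAD WT than in VAS WT (adjusted p = 0.0254, exact permutation test, and 0.27 with adjusted p = 0.0902 without VAD WT replicates 2 and 4). *Axl* to *Tyro3* rose by 0.91 from VAS Stra6-/- to the libraries labelled VAD Stra6-/- (adjusted p = 0.0147, exact permutation test). In all, 17 of the 24 differences passed.

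**Figure D4:**
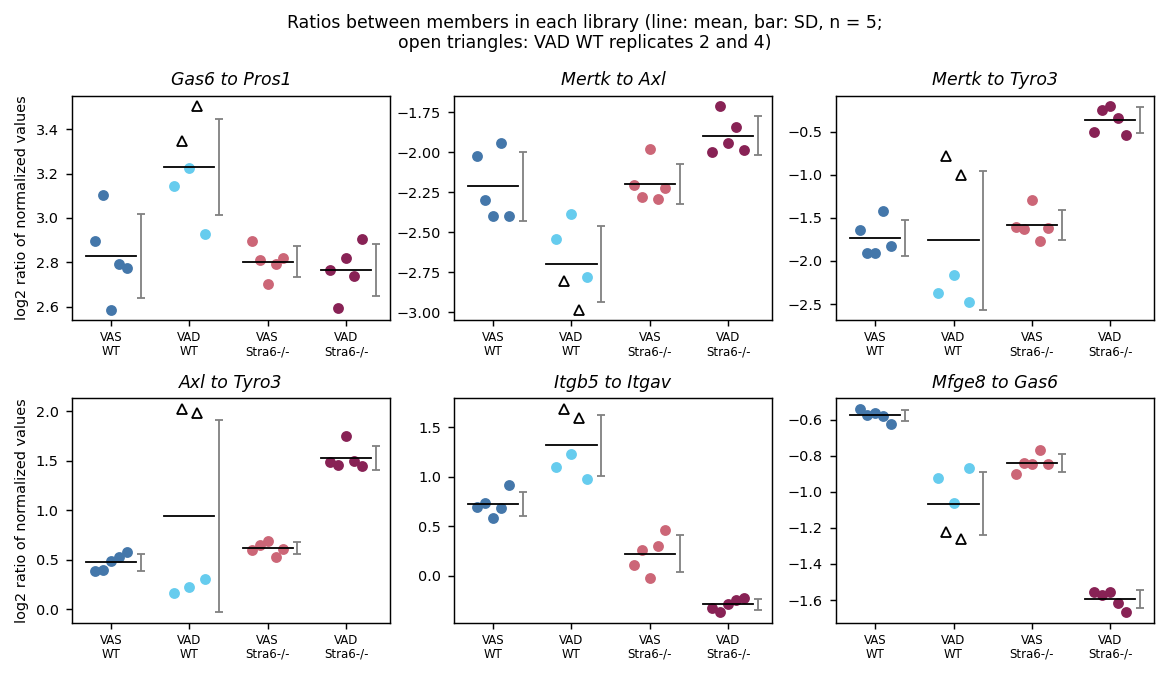
Log2 ratio of 2 members in the same library (y axis, a scale of its own in each panel) in the 4 groups (x axis), 1 point per library, with the mean as a line and the SD as a bar (n = 5). *Itgb5* to *Itgav* runs from 1.32 in VAD WT to -0.29 in the libraries labelled VAD Stra6-/-, and the open triangles show VAD WT replicates 2 and 4 far from the others for *Mertk* to *Tyro3* and *Axl* to *Tyro3*.

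Other genes of the pathway were counted in 7 lists of 68 genes, of which *Havcr1* was below the filter. Of 10 genes tested of the list of other uptake receptors, 5 were higher and 1 lower between VAS Stra6-/- and the libraries labelled VAD Stra6-/-, with a median log2 fold change of 0.50, where 24.4% of all genes were higher and 28.8% lower. The list also holds *Sirpa*, which is among the 5, and its ligand *Cd47*, and these 2 do not take up particles themselves. *Cd36*, a scavenger receptor that takes part in outer segment uptake, was 3.11-fold higher (log2 fold change 1.64, standard error 0.27, adjusted p = 2.04e-05, limma). *Cd81*, a tetraspanin, was 2.04-fold higher and *Scarb1*, the HDL receptor, 1.73-fold higher. Between the WT diet groups *Cd81* fell by 0.42 (adjusted p = 0.00102, limma) and *Adgrb1*, a phosphatidylserine receptor, was 1.45-fold higher (adjusted p = 0.0224, limma), the 2 of 10 that passed, beside 8.78% of all genes.

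The other ligands and integrin chains were split, and counts between the Stra6-/- diet groups stand beside 24.4% higher and 28.8% lower over all genes. Between the Stra6-/- diet groups, 3 of 6 other bridging ligands were higher and 2 lower, among them the matrix glycoprotein *Thbs1*, 3.97-fold higher (adjusted p = 1.75e-04, limma), *Edil3*, which binds alpha v integrins as *Mfge8* does, 2.48-fold higher, and the galectin *Lgals3*, which fell by 1.74 on the log2 scale (adjusted p = 5.16e-06, limma). Of the other beta partners of alpha v, *Itgb8* rose from 48.0 ± 6.42 to 624 ± 233 (SD, n = 5; adjusted p = 8.18e-04, limma) and *Itgb1*, the common beta chain, was 1.51-fold higher, while *Itgb6*, a chain of epithelia, fell by 1.37 (adjusted p = 7.65e-04, limma). In the WT diet comparison 0 of these 10 genes passed in limma with all libraries (1 at an unadjusted p under 0.05), 1 passed in edgeR and 1 in DESeq2, and without VAD WT replicates 2 and 4 limma called 5 lower and 1 higher. Over all genes limma called 8.78% with all libraries and 37.9% without those 2, of which 20.3% were lower and 17.6% higher. Of the 6 vitamin K cycle genes, which serve the carboxylation of GAS6 and protein S, *Vkorc1* (2.19-fold) and *Nqo1* (1.55-fold) were higher between the Stra6-/- diet groups and *Vkorc1l1* fell by 0.81 (adjusted p = 3.47e-07, limma).

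Inside the cell the lists did not move as 1, and the counts below stand beside 24.4% higher and 28.8% lower over all genes. Of 19 engulfment signalling and motor genes, 7 were higher and 9 lower between the Stra6-/- diet groups, with a median of -0.08. *Gulp1*, an engulfment adaptor, was 5.67-fold higher (adjusted p = 5.94e-07, limma), while *Anxa2*, a membrane-binding annexin, fell by 1.93 and *Vav3*, a guanine nucleotide exchange factor, fell by 1.67. Of 15 phagosome maturation genes, 8 were higher and 3 lower, with a median of 0.25, and *Mreg*, which takes part in the maturation of RPE phagosomes and melanosomes, fell by 2.08 (adjusted p = 1.37e-09, limma), from 1754 ± 48.7 to 415 ± 30.7 (SD, n = 5). Of 7 genes of receptor shedding and feedback, 4 were higher and 1 lower, *Socs3*, a cytokine signalling inhibitor, being 1.84-fold and *Twist1*, a transcription factor of the TAM feedback loop, 1.74-fold higher.

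Between the VAS groups the intracellular lists held most of the calls. Of the engulfment genes 9 of 19 were higher in Stra6-/- and 1 lower, with a median of 0.19 beside 0.02 over all genes, of which 15.9% were higher and 10.8% lower, and the largest were *Plcg2* (1.99-fold), *Dock1* (1.97-fold) and *Crk* (1.67-fold), all parts of the signalling from receptor to cytoskeleton. Of the phagosome genes 7 of 15 were higher and none lower, with *Mreg* 1.55-fold and the lysosomal membrane gene *Lamp2* 1.39-fold higher. *Socs3* was 3.39-fold higher (adjusted p = 2.13e-04, limma) and *Itgb1* 1.38-fold higher (adjusted p = 1.83e-04, limma). Of the receptors, *Adgrb1* and *Cd81* fell by 0.65 and 0.26, and *Lrp1*, an endocytic receptor, was 1.30-fold higher. The marker sums that moved with this comparison are given above, and their part in these counts was not tested.

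**Figure D5:**
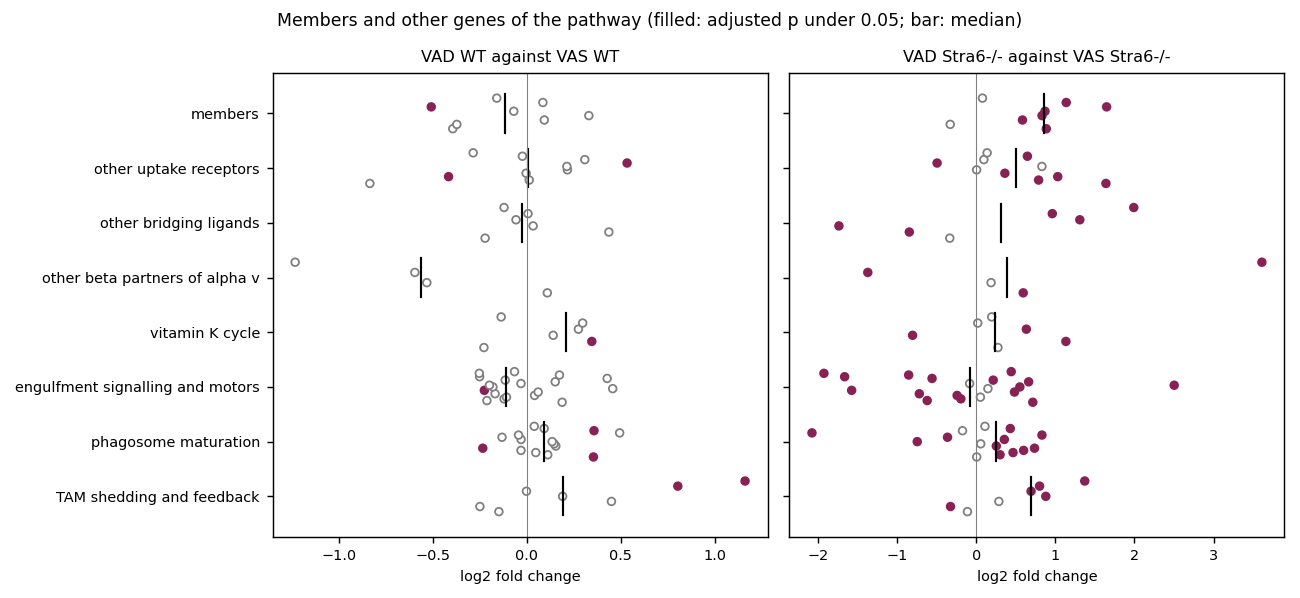
Log2 fold change (x axis) of each tested gene of the 8 members and of 7 lists of other pathway genes (y axis) between the WT diet groups and between the Stra6-/- diet groups, filled where the adjusted p was under 0.05, with the median of each list as a bar. The medians of the members are -0.12 on the left and 0.85 on the right, and the x axes differ between the panels.

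Likeness of pattern was measured as the root mean square difference of the centred log2 values over the 20 libraries, among 12299 genes with a mean value of at least 100. Nearest to *Mertk* was *Pde5a*, a cyclic GMP phosphodiesterase, with 0.108, followed by *Trpm1*, a channel of melanocytes and bipolar cells, and *Hspb8*, a small heat shock protein, against an SD of 0.567 of *Mertk* itself. Nearest to *Itgav* were *Crim1* (0.171), *Degs1* and *Mt1*, and nearest to *Itgb5* were *Rnf14* (0.0991), *Rnf130* and *Rnase4*. *Gas6* followed *Pfkl* (0.105), *Sparcl1* and *St6galnac6*, *Pros1* followed *Tspan7* (0.103), *Slc24a1* and *Zfp191*, and *Axl* followed *Slc25a23* (0.0665), *Anp32e* and *Dennd5a*. *Tyro3* was nearest to the sheddase gene *Adam17* (0.104), then *Plekha7* and *Pgd*, and *Mfge8* to *Amigo2* (0.0870), *Tpi1* and *Csf1*. Within the 8 genes the closest pair was *Axl* and *Gas6* (0.143), *Axl* standing at rank 9 of all genes for *Gas6* and *Gas6* at rank 45 for *Axl*, while *Itgav* and *Itgb5*, whose products form 1 receptor, were 0.619 apart. The libraries share composition and depth, so that these distances describe the 20 libraries only.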

How the data were processed

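The 20 RNA-seq libraries of RPE-choroid came from 4 groups of 5 mice, WT or Stra6-/-, fed a VAS or VAD diet. According to the submitters' processing notes the tools were STAR 2.5.3a, RSEM 1.2.30 and DESeq2 1.32.0, with the build GRCm38 (mm10). The signal deposited by the authors is a count per gene divided by a size factor per library, with no scaling for length and no log. In all 20 libraries every value lay within 1.3e-09 of a whole number of steps, so that reads could be recovered. VAD Stra6-/- replicate 1, where this distance was largest, was left out of tests on counts, but it entered the filter on recovered reads. Whether counting used the strand is not given in the sources used here, so that a gene and an antisense partner cannot be told apart.

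The design had foreseen edgeR on counts. Since the values proved to be normalized, limma 3.58.1 (R 4.3.3) with an intensity trend was used on log2(value + 1), with a mean per group, and edgeR 4.0.16 and DESeq2 1.42.0 on recovered reads became alternatives. Genes with at least 5 recovered reads in total (18807 of 24411) were kept. Folds are powers of 2 of the log2 fold change, and the pseudocount of 1 understates those of weakly expressed genes. At 13331903 to 21878614 reads per library, every member had a value of 257 or more in every library. On simulated data of 18024 genes limma recovered 99 of 100 genes changed by 1 and 100 of 100 changed by 2 on the log2 scale, with 10 false calls. The simulation held 2 groups of even spread, VAS Stra6-/- against VAS WT, drawn from VAS WT means, and changed no weakly expressed gene. It left out the split within VAD WT and changes below 1, so that it does not measure the power of the fit used here.

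The rule for the members uses gene names and no measured value, but the members, the pathway lists, the marker lists and the tests were chosen with earlier results of these data known. All members were named, with at most 3 called genes of largest change per pathway list and comparison, and the 3 genes nearest in pattern to each member. The values of 1 of the 11 marker lists are not reported here. Gene models were those of GENCODE vM21, promoter windows those of RefSeq (GRCm38.p6). Alternatives covered the tool, TMM scaling, the pseudocount, the filter, the libraries in the fit, sample weights, a replicate block, thresholds on fold change and leaving out libraries.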

Additional observations from a re-analysis of the deposited data

Results flagged for a closer look

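For 4 members the response to diet differed between the genotypes by the interaction term of limma, with the diet difference larger in Stra6-/- than in WT by 1.28 for *Mertk* (adjusted p = 1.06e-05), 0.94 for *Pros1* (adjusted p = 4.08e-04), 2.16 for *Itgav* (adjusted p = 2.02e-12) and 1.05 for *Itgb5* (adjusted p = 4.06e-05) on the log2 scale. The libraries labelled VAD Stra6-/- and those labelled VAD WT enter all 4 values. *Stra6* went against the label in the former, and in VAD WT replicates 1, 3 and 5 it overlapped with VAS Stra6-/-.

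In 4 of 32 sets of 5 libraries, 1 library lay far from the other 4 by Dixon's criterion, which chance alone meets in about 1 of 20 sets. *Mertk* was 605 in VAS Stra6-/- replicate 3, where the others lay between 489 and 505, and *Gas6* was 6559 in the same library, where the others lay between 6882 and 7017. *Tyro3* was 1067 in VAD Stra6-/- replicate 3, against 1251 to 1299 in the others. *Itgb5* was 7093 in VAD Stra6-/- replicate 5, against 5734 to 6040 in the others. VAD WT did not meet the criterion for any member, since replicates 2 and 4 lie apart together.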

How the results depend on the processing

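Of 1232 alternative values of the 40 fold changes of members, 1167 kept direction and side of the threshold, 37 passed only under the alternative, 1 no longer passed and 27 changed sign. Of 1344 alternative values of the ratios, those to the RPE markers included, 1299 kept both and 18 changed sign. The spread of VAD WT enters every comparison of the model with all libraries. The cause of the changes below was not tested, except that thresholds on fold change leave fewer genes by construction.

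A log2 fold change beyond 1 left 926 genes for VAS Stra6-/- against VAS WT, 328 for VAD WT against VAS WT, 4488 for VAD Stra6-/- against VAS Stra6-/-, 5064 for VAD Stra6-/- against VAD WT and 4613 for the interaction, and beyond 2 it left 207, 77, 1707, 1952 and 1960. With only the groups compared, 4 members and 8208 genes passed between the VAS groups and 639 genes between the WT diet groups. With sample weights 4 members and 8382 genes passed between the VAS groups, 4 members and 5131 genes between the WT diet groups, and 7 members in the interaction. The count of all genes for this last value is not given here. In the main fit 26.6%, 8.78% and 44.2% of the 18807 genes tested passed in these 3 cases. Without VAD WT replicates 2 and 4, 5 members and 7524 genes, 6 members and 7124 genes, and 8 members and 10286 genes passed in the same comparisons.

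Between the WT diet groups, *Axl*, *Gas6* and *Itgb5* turned to -0.21, -0.011 and -0.14 with sample weights and to -0.28, -0.10 and -0.19 without VAD WT replicates 2 and 4. *Tyro3* turned to -0.0079 with edgeR and -0.0073 with TMM factors between the VAS groups. Between the VAD groups it turned to -0.022 with edgeR, -0.21 with weights and -0.27 without the 2 libraries. In the interaction it turned to -0.014 with edgeR, -0.0097 with DESeq2, -0.23 with weights and -0.29 without the 2 libraries. *Axl* to *Tyro3* turned to -0.24 between the WT diet groups without the 2 libraries. Relative to 4 RPE genes, *Mertk*, *Tyro3*, *Axl*, *Gas6*, *Pros1* and *Itgb5* turned to -0.015, -0.17, -0.030, -0.032, -0.0051 and -0.16 between the VAS groups.

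Leaving out each library in turn gave 1 to 2 members and 1260 to 2651 genes between the WT diet groups, the most without VAD WT replicate 4. The fold changes ranged there from -0.20 to 0.027 for *Pros1*, -0.064 to 0.21 for *Axl* and -0.035 to 0.16 for *Itgb5*. *Tyro3* ranged from -0.012 to 0.050 between the VAS groups, -0.085 to 0.17 between the VAD groups and -0.10 to 0.15 in the interaction. *Mertk* to *Tyro3* ranged from -0.27 to 0.16 between the WT diet groups, *Mertk* to *Axl* from -0.038 to 0.083 and *Gas6* to *Pros1* from -0.087 to 0.041 between the VAS groups, and *Gas6* to *Pros1* from -0.073 to 0.0050 between the Stra6-/- diet groups.

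The replicate numbers did not pair the samples: deviations of same-numbered samples correlated between -0.0686 and 0.0654 over 30 pairs. A replicate block left 1, 1, 6, 6 and 4 members and 4820, 1446, 9937, 10423 and 8193 genes called in the 4 comparisons and the interaction, and changed the call of no member.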
